A study of Mus musculus with 316 samples.

Results

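Venous endothelial cells of the mouse hippocampus were chosen by their reads for 12 marker genes from 316 single endothelial cells. A gene counted when it reached 10 CPM (counts per 1000000 reads of the cell). Among cells with 1000 or more detected genes, a cell was venous when at least 2 of 6 venous genes counted (Nr2f2, Lrg1, Il1r1, Vwf, Ch25h and Icam1) and more of these than of 6 arterial genes (Gkn3, Bmx, Sema3g, Cytl1, Fbln5 and Mgp). The rule found 71 venous cells among 280 with enough genes. The other 209 cells are the comparison, and 77 of them are arterial by the mirrored rule (at least 2 arterial genes, and more arterial than venous). The 12 rule genes chose the cells, so they are described here and never counted as results.

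The cells came from the hippocampi of C57BL/6 males, 3 months old in the young and 19 months old in the aged group. Each pool joined the hippocampi of 4 mice, and each age had 2 pools. Cells were taken from each pool in 2 gates, labelled pos and neg; the labels do not name the gate's marker, and the series title names VCAM1. The pool is the replicate here. Values are CPM of the reads summed over the cells of a class in a pool, given as mean ± SD over 4 pools unless said otherwise.

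Veins and venules drain the brain's capillary bed, and they are the main site where leukocytes stick to and cross the vessel wall. Their endothelium is set apart from arteries by the transcription factor COUP-TFII, the product of Nr2f2, which holds back the Notch programme of arteries. Venous endothelium stores von Willebrand factor and P-selectin, carries receptors for interleukin 1, and shares with capillaries many of the transporters and junction proteins of the blood-brain barrier.

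Vwf was the rule gene that most members carried, at 10 CPM or more in 65 of 71 cells, against 96 of 209 other cells. The interleukin 1 receptor Il1r1 counted in 54 members and Nr2f2 in 51. Lrg1, a secreted glycoprotein, counted in 29, the adhesion molecule Icam1 in 24, and the cholesterol 25-hydroxylase Ch25h in 23. Of the arterial genes, Mgp was the one most members carried (17 of 71), while Gkn3, Cytl1 and Fbln5 counted in 0 of 71. Members had 2, 3, 4, 5 or 6 venous genes in 21, 17, 17, 11 and 5 cells, and 51 of 71 had no arterial gene.

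The pos gate gave 64 of the members and the neg gate 7. Young pool 1 gave 21 of 42 pos and 5 of 38 neg cells, and young pool 2 gave 19 of 45 and 0 of 40. Aged pool 1 gave 12 of 21 pos and 2 of 22 neg cells, and aged pool 2 gave 12 of 37 and 0 of 35. Venous cells were thus 32.4% to 57.1% of the pos cells of a pool and at most 13.2% of its neg cells. With 0 of 40 or 0 of 35 cells, shares of up to 7.5% or 8.57% remain possible. The sort can set such shares, so they do not estimate how common venous cells are in the tissue. In the summed reads used below, fewer cells with a gene and less RNA per cell cannot be told apart.

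**Figure D1:**
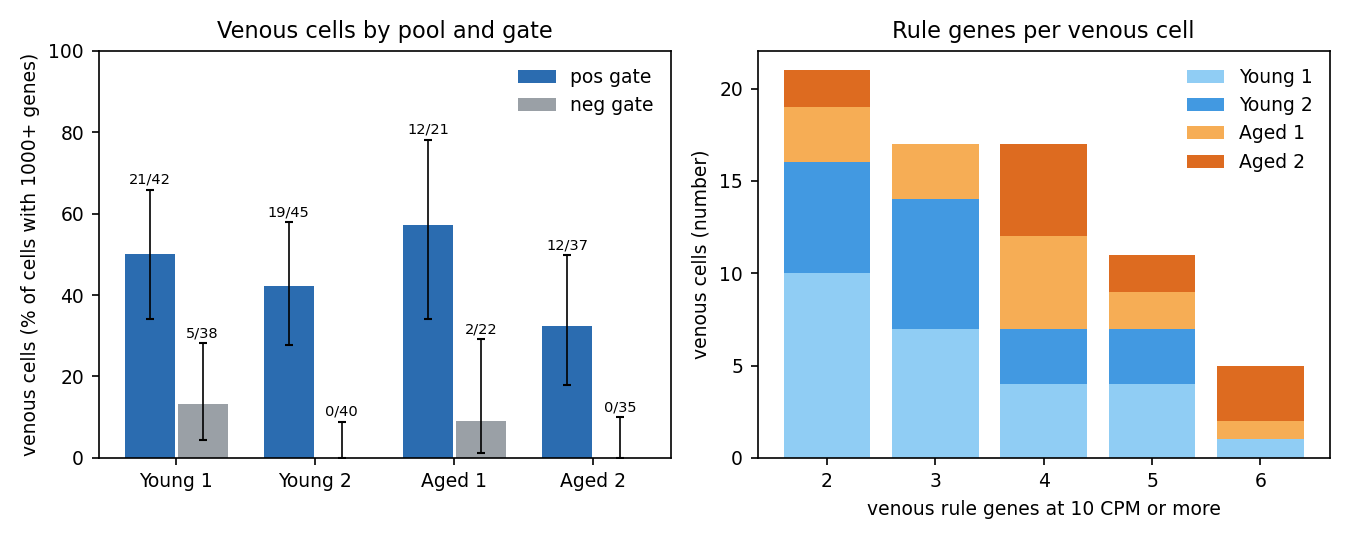
Left, venous cells as a percentage of cells with 1000 or more genes, by pool (x axis) and gate, with exact 95% binomial intervals (counting error only) and the counts above each bar. Right, number of venous cells (y axis) by how many of the 6 venous rule genes reached 10 CPM (x axis), stacked by pool; of the 45 young members 15 had 4 or more, and of the 26 aged members 18.

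Members of aged pools carried more of the rule genes. Those with 4 or more venous genes were 9 of 26 and 6 of 19 members in the young pools, and 8 of 14 and 10 of 12 in the aged pools. The rule used these genes, so the difference is given without a test. Just outside the rule stood 44 cells with 1 venous and 0 arterial genes, and 15 cells with 2 or more venous genes but at least as many arterial ones. Just inside stood 19 cells with 2 venous and 0 arterial genes, and 2 cells that had only 1 more venous than arterial gene.

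The cells were endothelial. Claudin 5 (Cldn5), the tight-junction protein of brain vessels, had a read in 70 of 71 members, the adhesion molecule Pecam1 in 63 and VE-cadherin (Cdh5) in 52. Markers of other brain cells were present at varying level. The summed level of the 9 of 10 listed microglial markers found in the table was 42.1 to 117 CPM in venous and 86.6 to 145 CPM in other sums. For 3 of 8 astrocyte markers it was 0.115 to 140 CPM against 116 to 347 CPM, and for 2 of 10 pericyte markers (Rgs5 and Vtn) 16.03 to 49.7 CPM against 7.40 to 33.8 CPM. The fibroblast list had 2 of 10 genes in the table, Col3a1, at 0 in all venous sums, and Apod, which is taken up below. For 4 of 10 smooth muscle markers the sums were 43.4 to 125 CPM in venous and 55.4 to 163 CPM in other cells. For 4 of 7 genes of choroid plexus and fenestrated vessels (Plvap, Plpp3, Ttr and Nrp1) they were 163 to 678 CPM and 401 to 629 CPM. Erythrocyte and neuron lists had 0 genes in the table. Only lists with 3 or more genes in the table could mark a cell as another type, so the pericyte and fibroblast lists could not. By those that could, 6 of the 280 cells resembled another type, 1 of them venous. Without these 6 cells 55 genes passed in the first comparison below, including all 50 that passed with them.

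Several features of the libraries differed between the classes, some of them not in every pool. Venous cells had 2028 ± 139 detected genes per cell in the mean over pools, and other cells 1798 ± 67.3 (exact two-sided permutation p = 0.0857 over 4 against 4 pools, where the smallest possible is 0.0286). In aged pool 1 the order was turned, with 1838.3 and 1855.9 genes. Median reads per cell were 599211 and 512966 over all pools, and 393096 and 507723 in aged pool 1. The median share of mitochondrial reads was higher in venous cells of all 4 pools, at 2.65%, 2.85%, 3.78% and 2.56% against 2.31%, 2.39%, 2.65% and 1.82% in other cells. A score of stress and immediate early genes (a mean over log2 values of CPM plus 1) averaged 3.33, 3.66, 3.605 and 4.46 in venous cells of young pools 1 and 2 and aged pools 1 and 2, and 2.46, 2.77, 3.21 and 3.25 in other cells. The part of the gate, depth, mitochondrial share and this score in the results was not tested except where a value is given.

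The first comparison set venous cells against all other cells, 4 venous and 4 other sums, over 10452 genes outside the rule. At an adjusted p under 0.05 (edgeR's quasi-likelihood test), 14 genes were higher and 36 lower in venous cells, 0.478% of those tested (0.134% higher and 0.344% lower). Higher genes included the glutamine transporter Slc38a5, the protease Ctsc, the stress-response gene Ier3 and the lipid carriers Apod and Apoe. Lower genes included the chemokine Cxcl12, the retinol receptor Stra6 and many genes of arteries. With all pools 1310 genes (12.5%) had an unadjusted p under 0.05. Leaving out any 1 pool cut the calls to a small part of the 50, in fits that kept a single pool of that age. Why the count fell was not tested. With the pool as a block, which the shared mice allow, 17 genes passed, 9 higher and 8 lower, and 14 of these were among the 50.

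Slc38a5 codes for a transporter of glutamine and other neutral amino acids and is known as a marker of brain veins and venules. It lies on chromosome X at 8271133 to 8280179 (GRCm38, plus strand). Its level was 1974 and 1193 CPM in venous cells of young pools 1 and 2, and 2558 and 3020 CPM in aged pools 1 and 2. Other cells had 374, 192, 433 and 281 CPM in the same order. All 4 venous sums lay above all 4 other sums, a 6.83-fold difference of means (log2 2.72 ± 0.30 SE, adjusted p = 0.0150). It had a read in 60 of 71 venous cells and in 50 of 209 other cells.

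Ctsc, which codes for cathepsin C, a lysosomal protease that activates serine proteases of immune cells, showed the smallest adjusted p among the higher genes. It lies on chromosome 7 at 88278085 to 88310888. Venous sums held 651, 613, 834 and 971 CPM, and other sums 77.1, 126.5, 79.6 and 68.0 CPM, in the order of pools used above. The groups were far apart, with an 8.74-fold difference of means (log2 3.12 ± 0.24, adjusted p = 0.00304). A predicted gene lies on the opposite strand within it, and whether reads were counted by strand is not given in the sources used here.

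Ier3, an early-response gene that limits cell death after inflammatory and stress signals, lies on chromosome 17 at 35821684 to 35822923. Its venous sums were 636, 757, 860 and 1932 CPM, against 117, 120, 241 and 159 CPM in other cells. Aged pool 2 was the highest of the venous sums, and no sums overlapped between the classes (log2 2.68 ± 0.30, adjusted p = 0.0172). Ier3 is the one gene of 23 tested stress and immediate early genes that passed, and Jun and Hspa1a of the same list did not (adjusted p = 0.245 and 0.330). The list's median log2 ratio was 0.623, beside -0.151 over all genes tested. Of the 23 genes 7 were higher and 2 lower at an unadjusted p under 0.05, where 2.2% and 10.3% of all genes were. In all 4 pools 7 were higher and 1 lower, beside 4.9% and 13.2% of all genes. DESeq2 called 6 higher and 2 lower, beside 3.31% and 13.7% of all genes.

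The starts of these 3 genes are shown because their values were given above; they were chosen after those values were seen. Each sequence is RefSeq's (GRCm38.p6), 250 bases before to 50 after the start, read along the plus strand. The positions are chrX:8271131-8271430, chr7:88277835-88278134 and chr17:35821463-35821762. Capitals mark matches to 1 of 2 motifs of inflammatory transcription factors, both searched on both strands and not overlapping each other here: the STAT motif TTCNNNGAA and the NF-kB consensus.
Slc38a5: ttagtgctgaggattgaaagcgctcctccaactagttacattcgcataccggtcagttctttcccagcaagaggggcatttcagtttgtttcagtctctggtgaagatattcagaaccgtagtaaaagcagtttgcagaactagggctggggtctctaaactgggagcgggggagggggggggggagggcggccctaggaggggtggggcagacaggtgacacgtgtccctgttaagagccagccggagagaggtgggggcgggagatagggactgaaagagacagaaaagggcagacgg
Ctsc: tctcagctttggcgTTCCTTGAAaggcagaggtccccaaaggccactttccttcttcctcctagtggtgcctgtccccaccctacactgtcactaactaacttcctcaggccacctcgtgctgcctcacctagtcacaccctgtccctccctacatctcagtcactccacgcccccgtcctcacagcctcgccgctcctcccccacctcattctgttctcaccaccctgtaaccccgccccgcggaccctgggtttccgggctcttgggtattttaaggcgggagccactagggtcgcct
Ier3: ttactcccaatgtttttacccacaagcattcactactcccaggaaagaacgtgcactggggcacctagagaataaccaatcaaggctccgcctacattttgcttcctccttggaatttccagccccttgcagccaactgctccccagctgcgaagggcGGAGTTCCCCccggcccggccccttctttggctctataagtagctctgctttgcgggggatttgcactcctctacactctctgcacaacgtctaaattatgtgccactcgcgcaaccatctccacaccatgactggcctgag

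Of the 14 genes higher in venous cells, 10 had an entry in this table, with 14 starts in all. The STAT motif stood in 2 of the 14 starts (Ctsc and Ndufa8) and the NF-kB consensus in 2 (Ier3 and Gng7), 14.3% each. Among all 32851 starts of the table the shares were 8.30% and 4.51%. For the genes lower in venous cells they were 1 and 2 of 41 starts. A match describes letters and shows no binding.

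Further higher genes were carriers of lipid and iron, and enzymes. Apod, a small lipid-binding lipoprotein, was at 640, 458, 1049 and 931 CPM in venous and 115, 131, 182 and 246 CPM in other sums (log2 2.18 ± 0.21, adjusted p = 0.0117). It had a read in 47 of 71 venous cells. Apod is also on the fibroblast list, of which the other gene in the table, Col3a1, was at 0 in venous cells. Apoe, the main lipid carrier of the brain, averaged 3170 ± 716 CPM in venous and 1367 ± 390.2 in other sums (log2 1.21 ± 0.18, adjusted p = 0.0393). The iron-storage subunit Fth1 averaged 4057 ± 735 and 1735 ± 254 CPM (log2 1.22 ± 0.14, adjusted p = 0.0183). The ranges of Apoe and Fth1 did not overlap between the classes.

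Tgm2, a transglutaminase that crosslinks proteins, was at 1614, 1461, 1357 and 2444 CPM in venous and 402, 350, 391 and 675 CPM in other sums (log2 1.93 ± 0.26, adjusted p = 0.0308). Fmo1, a flavin monooxygenase, averaged 468 ± 160 and 124 ± 59.2 CPM (log2 1.98 ± 0.24, adjusted p = 0.0188). Ndufa8, a subunit of mitochondrial complex I, averaged 545 ± 191 and 178 ± 28.7 CPM (adjusted p = 0.0357).

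Lbp, which carries bacterial lipopolysaccharide to its receptor complex, was nearly absent outside venous cells. It had 4208 reads in 13 of 71 venous cells and 3 reads in 2 of 209 other cells. The venous sums were 81.3, 139, 69.1 and 89.8 CPM, so each pool held cells with the gene (adjusted p = 0.0186). Tmem45a, a membrane protein, was read in 11 of 71 and 3 of 209 cells, with 2758 and 4 reads (adjusted p = 0.0380). Gng7, a G protein subunit, was read in 5 venous and 5 other cells, and 1 cell held 53.8% of its venous reads (adjusted p = 0.0479). A predicted gene was also called.

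**Figure D2:**
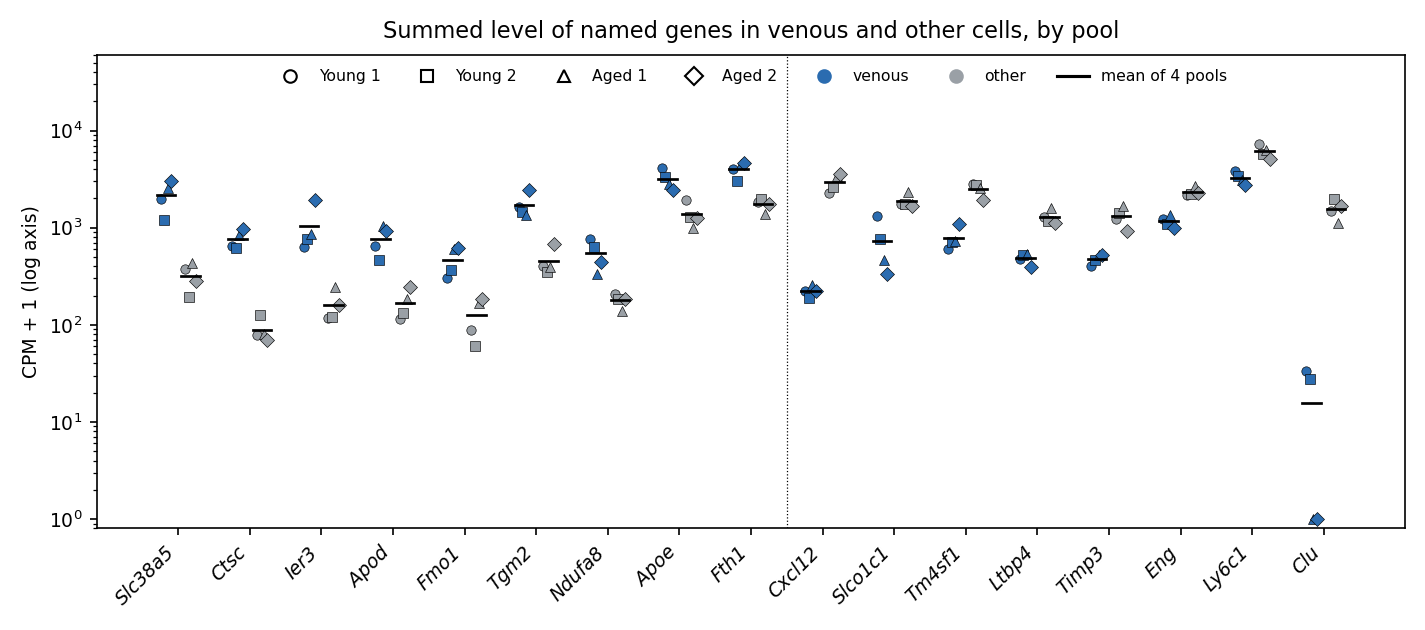
CPM plus 1 (y axis, log scale) of 17 named genes (x axis) in the 4 venous and 4 other sums, with a symbol per pool and a bar at the mean. Genes left of the dotted line were higher and those right of it lower in venous cells; for Clu, the 2 aged venous sums sit at 0 reads.

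With the pool as a block the call held for Slc38a5 and Tgm2 (both adjusted p = 0.00696), Ctsc and Apod (both 0.0276), Apoe (0.0354) and Ier3 (0.0472). It did not for Lbp (0.0773), Fmo1 (0.0783), Ndufa8 (0.107), Fth1 (0.119), Tmem45a (0.130) and Gng7 (0.784).

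Among 19 tested genes known from veins that the rule did not use, 5 were called higher, among them Slc38a5, Ctsc, Ier3 and Lbp, and 0 lower, and 11 were higher in venous cells in all 4 pools. In all 4 pools 4.9% of all genes were higher. The median log2 ratio of the list was 1.996, beside -0.151 over all genes tested. (For such medians a group with fewer than 3 reads is set to the level of 3 reads.) This list was drawn up with earlier results of these data known, so its direction is no independent support for the label. The chemokine-binding receptor Ackr1, a marker of venules singled out here after its values were seen, had reads in 7 of 71 venous cells and in 0 of 209 others, which allows a share of up to 1.44%. Its venous sums were 296 and 0 CPM in young and 502 and 1776 CPM in aged pools, and it was not called (adjusted p = 0.193). Tmem252, also singled out, was at 955 ± 448 against 163 ± 66.4 CPM (adjusted p = 0.0552). With the pool as a block both passed (adjusted p = 0.0276 and 0.00696), and the list again had 5 calls: these 2 with Slc38a5, Ctsc and Ier3.

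Lower in venous cells stood, first, Cxcl12, a chemokine made by capillary and arterial endothelium. It lies on chromosome 6 at 117168535 to 117181367. Venous sums held 223, 187, 257 and 223 CPM, and other sums 2293, 2614, 3388 and 3577 CPM. No venous sum came near the lowest other sum, and the difference of means was 13.3-fold (log2 -3.72 ± 0.15, adjusted p = 1.61e-04). The block kept it (adjusted p = 9.93e-04).

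Of 29 tested arterial and Notch genes, 4 were called lower and 0 higher, and the median log2 ratio was -1.55, beside -0.151 over all genes. The 4 were the Notch ligand Dll4, alkaline phosphatase Alpl, the surface protein Tm4sf1 and T-cadherin, Cdh13. Cdh13 had 0 reads in venous cells and 252 to 328 CPM in the other sums, at least 4236-fold lower than other cells at a floor of 3 reads over the group. Tm4sf1 averaged 782 ± 215 against 2519 ± 407 CPM (log2 -1.70 ± 0.18, adjusted p = 0.0150). Alpl had venous sums of 0.0529, 0.180, 10.1 and 144 CPM against 719.5 to 987 CPM, and 95.7% of its venous reads came from 1 cell. The rule leaves cells with arterial genes among the others, so part of this follows from how the classes were made. With the pool as a block, 0 of the 29 passed (Cdh13 adjusted p = 0.0592, Tm4sf1 0.0987, Alpl 0.569, Dll4 0.692), and without the block 17 had an unadjusted p under 0.05 and DESeq2 called 15, all lower, as were 10.3% and 13.7% of all genes.

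Clu, which codes for the secreted chaperone clusterin, had venous sums of 32.1 and 26.6 CPM in young and 0 in aged pools, against 1487, 1950, 1126 and 1660 CPM in other cells (adjusted p = 1.61e-04). Reads came from 7 of 71 venous cells, and 1 cell held 67.0% of them. The call was lost with the block (adjusted p = 0.380).

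Further genes had no read in venous cells. They were the DNA repair gene Rad54b, the oestrogen receptor Gper1, Prune2, Kazald1, the matrix genes Olfml2a and Col18a1, and Pdlim2, with other-cell means of 88.9 to 149 CPM and adjusted p from 0.0150 to 0.0448. Each was at least 1295-fold lower at the same floor. Most of them were also rare in non-arterial other cells. Gper1, Prune2, Kazald1, Olfml2a, Col18a1 and Pdlim2 were read in 6, 4, 6, 2, 3 and 3 of 132 such cells. In the 77 arterial cells they were read in 26, 32, 30, 38, 33 and 26. Rad54b was read in 21 of the 132 and 21 of the 77. Fhl1 had 1 read and Atp2a3, a calcium pump, 2 reads in venous cells, and Gdap2 had 5. Fhl1 was read in 2 of 132 non-arterial and 39 of 77 arterial cells, Atp2a3 in 6 and 48, and Gdap2 in 15 and 14. With the block only Fhl1 of these kept its call (adjusted p = 0.0276), and the others were at 0.0919 to 0.440. Several overlap other genes, such as Rad54b with Fsbp on its strand, so reads could not be assigned to 1 gene with certainty.

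Among genes at high level in both classes, Ly6c1, a surface protein of brain endothelium, averaged 3257 ± 443 CPM in venous and 6087 ± 938 in other sums (log2 -0.91 ± 0.13, adjusted p = 0.0392). Eng, a TGF-beta co-receptor, was at 1162 ± 148 against 2332 ± 227 (adjusted p = 0.0390), and Ltbp4, which binds latent TGF-beta, at 481 ± 63.4 against 1290 ± 218 (adjusted p = 0.0308). These were the 2 of 18 tested TGF-beta and BMP genes that were called, both lower, with a list median of -0.144. Timp3, an inhibitor of matrix proteases, was at 477 ± 58.2 against 1308 ± 308 CPM (adjusted p = 0.0393). It and Col18a1 were the 2 of 19 matrix genes called, both lower, with a list median of -1.08 beside -0.151 over all genes. At an unadjusted p under 0.05, 9 of the 19 were lower and 0 higher (10.3% and 2.2% of all genes). In all 4 pools 11 were lower and 0 higher (13.2% and 4.9%). Against non-arterial cells alone 0 of 18 tested matrix genes were called. The block kept Ly6c1, Ltbp4 and Eng (adjusted p = 0.0276, 0.0354 and 0.0499) and not Timp3 (0.0919).

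Of 28 tested barrier transporters and junction genes only Slco1c1, a carrier of thyroid hormone, was called, and it was lower. In all 4 pools 7 of the 28 were lower and 2 higher, beside 13.2% and 4.9% of all genes. At an unadjusted p under 0.05, 2 were higher and 4 lower, beside 2.2% and 10.3% of all genes. The list median was -0.211. Its venous sums were 1330, 765, 463 and 330 CPM, and its other sums 1685 to 2352 CPM, with no overlap, as for 5.49% of all genes in this direction (log2 -1.54 ± 0.23, adjusted p = 0.0423; with the block 0.406). The glucose transporter Slc2a1 was at 10078 ± 2200 in venous and 8696 ± 584 CPM in other sums, and Bsg, an immunoglobulin-family partner of lactate carriers, at 14686 ± 3208 and 17302 ± 1078 (adjusted p = 0.541 and 0.617). Cldn5 was at 4639 ± 995 and 6388 ± 555 CPM (adjusted p = 0.220).

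Of 17 capillary genes only Cxcl12 was called, with a list median of -0.564 beside -0.151 over all genes. In all 4 pools 9 of the 17 were lower and 0 higher, beside 13.2% and 4.9% of all genes. At an unadjusted p under 0.05, 6 were lower and 1 higher (10.3% and 2.2% of all genes). Against non-arterial cells alone 3 of the 17 were called, all lower (Cxcl12, Rgcc and Ivns1abp), where 15 genes in all were called lower. Itm2a, at 10093 ± 2334 and 8053 ± 287 CPM, and the organic anion carrier Slco1a4, at 2503 ± 549 and 2467 ± 231, were not called (adjusted p = 0.287 and 0.9998), and both signs turned against non-arterial cells alone. Carbonic anhydrase Car4 was read in 44 of 71 venous, 104 of 132 non-arterial other and 10 of 77 arterial cells. The lipid carrier Mfsd2a was read in 18, 70 and 15 of these cells. Both were singled out after their values were seen. Neither was called, against all other cells or against non-arterial cells alone (adjusted p = 0.397 and 0.632 in edgeR's test against the latter).

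Inflammatory genes beyond the rule gave few calls. Of 25 tested genes of interleukin 1 and NF-kB signalling 0 were called, and the list median was -0.043. At an unadjusted p under 0.05, 5 were higher and 2 lower, beside 2.2% and 10.3% of all genes. DESeq2 called 6 higher and 2 lower, beside 3.31% and 13.7% of all genes. Of 12 tested leukocyte adhesion genes 0 were called by edgeR's quasi-likelihood test. At an unadjusted p under 0.05, 0 were higher and 3 lower, beside 2.2% and 10.3% of all genes. DESeq2 called 1 higher and 3 lower, beside 3.31% and 13.7%. Of 13 genes of interleukin 6 and STAT3 signalling 0 were called, although the median was 0.912 and 7 had an unadjusted p under 0.05 in the higher direction, as had 2.2% of all genes (DESeq2 called 7 higher and 1 lower, and 3.31% and 13.7% of all genes). Junb was at 703 ± 329 against 278 ± 120 CPM, Pim3 at 665 ± 338 against 251 ± 53.2, Osmr, a receptor subunit for oncostatin M, at 384 ± 146 against 204 ± 36.3, and Cebpd at 399 ± 318 against 80.5 ± 38.1 (adjusted p = 0.188, 0.208, 0.333 and 0.233). Among 21 prostaglandin and sterol genes 0 were called. At an unadjusted p under 0.05, 3 were higher and 4 lower, beside 2.2% and 10.3% of all genes. DESeq2 also called 3 higher and 4 lower, beside 3.31% and 13.7%.

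Ptgs2, the inducible cyclooxygenase that starts prostaglandin synthesis, was read in 28 of 71 venous cells and in 6 of 209 others. Its venous sums were 52.1 and 38.5 CPM in young and 275 and 848 CPM in aged pools, and its other sums 0.152 to 12.4 CPM. The groups did not overlap, as for 1.76% of all genes in this direction, but the gene did not pass (log2 5.44 ± 1.39, adjusted p = 0.207), and 1 cell held 42.3% of its venous reads. Csf1, the growth factor of microglia and macrophages, was at 175 ± 168 against 23.3 ± 14.2 CPM (adjusted p = 0.271). Of 30 interferon genes, Ly6c1 and Rsad2 were called lower and 0 higher, beside 0.344% and 0.134% of all genes. The list median was -0.575 beside -0.151 over all genes. At an unadjusted p under 0.05, 11 were lower and 1 higher (10.3% and 2.2% of all genes). In all 4 pools 9 were lower and 2 higher (13.2% and 4.9%), and DESeq2 called 9 lower and 2 higher (13.7% and 3.31%). Rsad2 was read in 5 of 71 venous cells, and the block ended its call (adjusted p = 0.692).

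The other cells were also taken in 2 classes, 132 that were not arterial and 77 that were (values here are the mean CPM per cell, averaged over pools). Slc38a5 was at 2157 ± 850.5 in venous, 486 ± 254 in non-arterial other and 35.7 ± 71.3 in arterial cells. Cxcl12 was at 232 ± 49.1, 3924 ± 825 and 880 ± 193 CPM, so it was lowest in venous cells. Clu was read in 9.86% of venous, 8.33% of non-arterial other and 89.6% of arterial cells, and Cdh13 in 0%, 5.30% and 50.6%. For these 2 genes venous cells stood near the non-arterial cells.

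Against non-arterial cells alone, 28 genes were called, 13 higher and 15 lower, and 19 of them were among the 50. Ctsc (log2 2.97 ± 0.21, adjusted p = 0.00286), Slc38a5 (2.16 ± 0.31, 0.0496), Ier3, Apod, Tgm2 and Fth1 kept their call, as did Cxcl12, Slco1c1, Ly6c1, Rsad2, Alpl and Rad54b among the lower ones. Ptgs2 then passed (log2 8.965 ± 1.12, adjusted p = 0.0401). Apoe, Fmo1, Lbp and Ndufa8 did not (adjusted p = 0.0606, 0.0606, 0.0871 and 0.109), nor did Eng, Ltbp4, Timp3, Tm4sf1, Clu and Cdh13 (0.122 to 0.724). A lost call is not a lost difference. Apoe was at log2 1.14 here and 1.21 against all other cells, Ndufa8 at 1.33 and 1.56, and Timp3 at -0.97 and -1.46. Ltbp4 was at -0.37 and -1.42, and Tm4sf1 at -0.60 and -1.70.

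**Figure D3:**
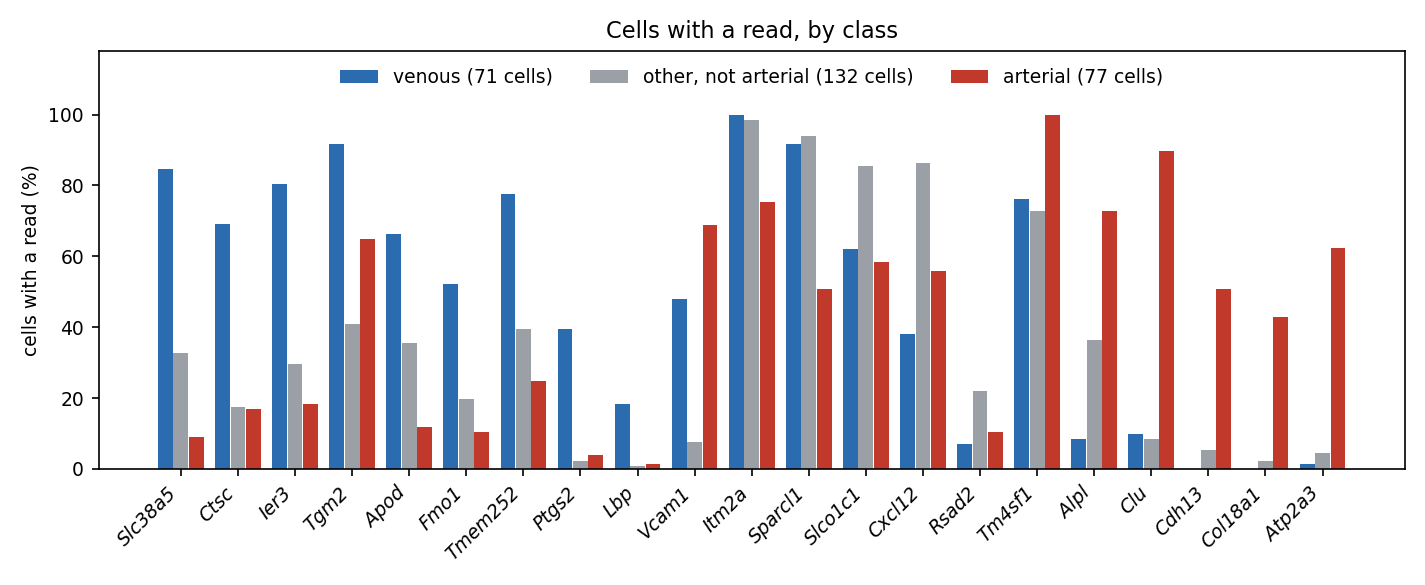
Percentage of cells with at least 1 read (y axis) of 21 named genes (x axis) in 71 venous, 132 other non-arterial and 77 arterial cells, pooled over the 4 pools. Slc38a5, Ctsc and Ier3 were read most often in venous cells, Cxcl12 and Slco1c1 in non-arterial other cells, and the last 6 genes in arterial cells; cells of a pool share a source, so no error is drawn.

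The share of cells with a read differed with the number of venous rule genes. Slc38a5 had a read in 28.4% of the 74 cells with 0 rule genes of either kind and 45.5% of the 44 with 1 venous gene. Inside the rule it was read in 76.2% of 21 cells with 2 venous genes, 88.2% of 17 with 3 and 87.9% of 33 with 4 or more. Ctsc went from 18.9% and 18.2% to 52.4%, 76.5% and 75.8% over the same bins. The mean CPM of Ctsc, averaged over pools, did not follow the same order: it was 57.9, 309, 1022, 745 and 781. Cxcl12 ran the other way in its shares, from 89.2% and 84.1% to 42.9%, 35.3% and 36.4%. Car4 was read in 82.4%, 84.1%, 76.2%, 70.6% and 48.5% of the cells in these bins. These shares are descriptions of cells, with no test, and the bin of 17 cells holds 0 cells of aged pool 2.

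The bins also differed in gate and stress score. The pos gate gave 9.46%, 20.5%, 76.2%, 88.2% and 100% of the cells in these 5 bins, aged cells 41.9%, 54.5%, 23.8%, 17.6% and 54.5%, and the median number of detected genes was 1554.5, 1571, 1984, 1965 and 2040. The mean stress score was 2.81, 2.30, 3.01, 3.055 and 4.39. Their part in the trend was not tested.

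**Figure D4:**
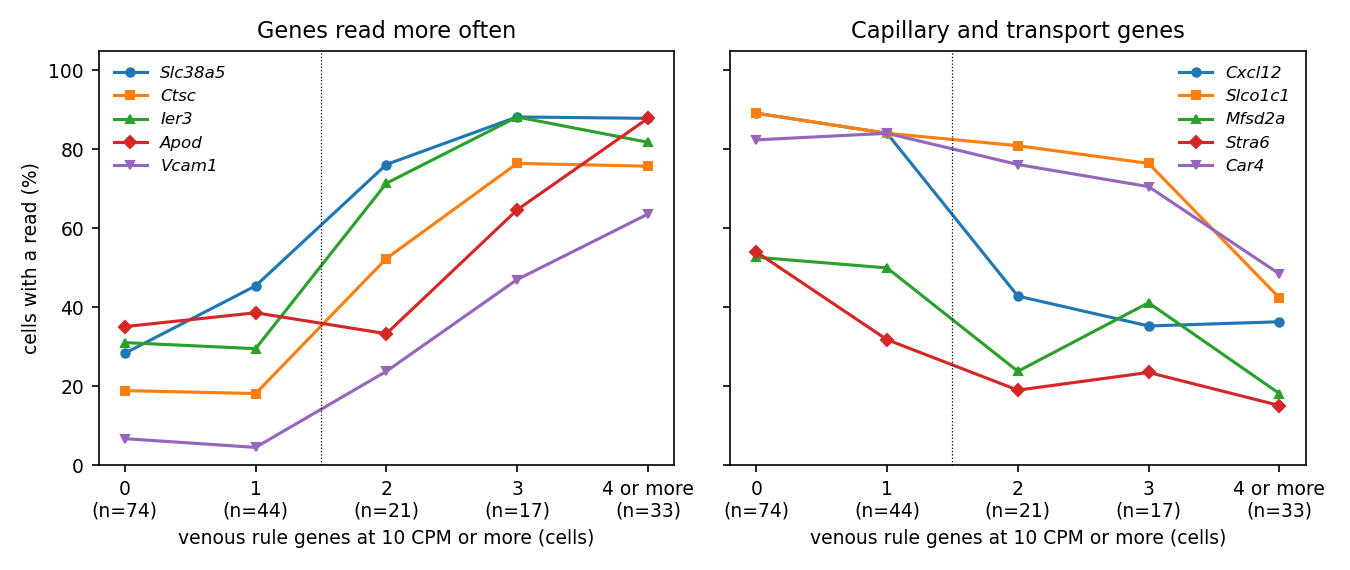
Percentage of cells with a read (y axis) by number of venous rule genes at 10 CPM or more (x axis, cells with 0 or 1 having no arterial gene), for genes named in the text. Bins right of the dotted line are venous cells; Slc38a5 goes from 28.4% to 87.9% and Cxcl12 from 89.2% to 36.4% between the first and the last bin.

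The second comparison held the gate fixed and set 64 venous against 81 other pos cells. Of those 81, 63 were arterial, so it is mostly a comparison of veins with arteries. Of 10085 genes, 5 were higher and 38 lower in venous cells (0.0496% and 0.377%, together 0.426%), and 9.9% had an unadjusted p under 0.05. The higher genes were Lbp, Fmo1, Apod, Tmem252 and a predicted gene. Without aged pool 1 the count fell to 0 (1231 genes at an unadjusted p under 0.05) and without aged pool 2 to 1, while 15 and 10 genes passed without young pool 1 and young pool 2. With the pool as a block 11 passed, 9 of them among the 43. Against the 18 pos cells that were neither venous nor arterial, 1 gene passed, which was not among the 43.

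Fmo1 was at 336, 374, 697 and 634 CPM in venous pos cells and 0.134, 0.687, 56.9 and 44.5 CPM in other pos cells (log2 6.72 ± 0.57, adjusted p = 0.00291, with the block 0.423). Other pos cells of the young pools held almost no Fmo1 reads, so this fitted value is no measure of size. It ran from 4.068 to 7.432 over the other settings. Tmem252, a membrane protein of veins, was at 1109, 550, 908 and 1645 against 178, 112, 131 and 199 CPM (log2 2.73 ± 0.37, adjusted p = 0.0231), and the block kept it (0.0161). Apod and Lbp did not keep their call with the block (adjusted p = 0.318 and 0.146). The Fmo1 and Tmem252 sums did not overlap between the classes, as for 2.27% of all genes in this direction. Slc38a5, Ctsc and Ier3 were also higher in all 4 pools (6.4% of all genes were), at 11.1-fold, 13.2-fold and 5.29-fold, but did not pass within the gate (adjusted p = 0.0971, 0.435 and 0.0851). The lower genes by the largest change were Cdh13, Atp2a3, Gper1, Olfml2a, Col18a1, Kazald1, Sdc1 and Pdlim2, all with 0 reads in venous pos cells; 8.97% of all genes were lower in all 4 pools and 3.79% did not overlap in this direction. Of 28 arterial and Notch genes 6 were called lower and 0 higher, beside 0.377% and 0.0496% of all genes. Their median log2 ratio was -1.91, beside -0.053 over all genes. At an unadjusted p under 0.05, 17 were lower and 0 higher (6.29% and 3.61% of all genes). In all 4 pools 18 were lower and 1 higher (8.97% and 6.4%). The rule leaves arterial cells among the others here too, so part of this follows from how the classes were made. With the block 3 of the 28 passed. Of the 8 lower genes just named Cdh13 kept its call (adjusted p = 0.0201) and the others were at 0.0505 to 0.181.

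Capillary genes had the opposite sign in their median here, where most comparison cells were arterial. Their median log2 ratio was 1.01 in the pos gate and -0.564 over all cells, with 0 of 17 called in the pos gate. At an unadjusted p under 0.05, 7 were higher and 2 lower there, beside 3.61% and 6.29% of all genes. DESeq2 called 6 higher and 2 lower, beside 5.02% and 8.29%. Itm2a was at 9924 ± 2291 against 2571 ± 1235 CPM and Sparcl1 at 1579 ± 303 against 786 ± 279 (adjusted p = 0.0920 and 0.0779). Cxcl12 was not called in the pos gate, at 189 ± 96.1 against 651 ± 417 CPM (adjusted p = 0.387). Against the pos cells that were neither venous nor arterial, Itm2a was at log2 0.73, Sparcl1 at 0.14 and Cxcl12 at -2.85, none of them called. With both gates, the mean CPM per cell of Sparcl1 was 1682 in venous, 2891 in non-arterial other and 598 in arterial cells. For Itm2a it was 10963, 11346 and 2094.

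Vcam1, the adhesion molecule of the series title, lies on chromosome 3 at 116109949 to 116129688 (minus strand). Its level did not separate venous from other cells. Venous sums held 330 and 168 CPM in young and 1925 and 1605 CPM in aged pools, and other sums 417, 512, 977 and 1061 CPM. The difference was small (log2 -0.05 ± 0.23, adjusted p = 0.996), and its sign changed with RLE size factors (0.018). By class it had a read in 34 of 71 venous cells, 53 of 77 arterial cells and 10 of 132 other cells.

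Within the pos gate a Vcam1 read was found in 9 of 21 and 6 of 19 venous cells of the young pools and in 9 of 12 and 9 of 12 of the aged pools. Arterial cells of the gate had 8 of 14, 20 of 25, 4 of 6 and 17 of 18. All other pos cells together, arterial ones included, had 10 of 21, 20 of 26, 5 of 9 and 20 of 25. The share of venous cells minus that of other cells was -8.92 percentage points over 4 pools (exact two-sided permutation p = 0.486). Without young pool 2 it was 3.23 points, and against non-arterial cells alone, with 1 to 7 cells a pool, 29.9 points (exact permutation p = 0.143).

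The third comparison asked what differs with age within venous cells, 26 aged against 45 young cells in 2 pools each. Of 10452 genes 1 was called, Clu, lower in aged cells (0.00957%), while 1000 (9.57%) had an unadjusted p under 0.05. DESeq2 called 1517, of which 1074 were lower, and on simulated counts of this comparison it made 301 wrong calls. Clu is named here after its values were seen. Its 7 venous cells with a read were all young, its aged venous sums were 0, and it was not called in venous pos cells alone or without any 1 pool. Other cells had 1487 and 1950 CPM in young and 1126 and 1660 CPM in aged pools, and the difference between the classes also changed with age (log2 -11.8 ± 0.80, adjusted p = 0.0336; with the block 0.628).

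Vcam1 was higher in both aged venous sums and did not pass (log2 2.83 ± 0.35, adjusted p = 0.176; with the replicate number as a block 0.520). In aged venous cells 1 cell held 30.9% of its reads. Aged and young sums did not overlap, as for 11.1% of all genes in this direction. In other cells the aged sums were also above the young ones, and the change of the class difference with age was not called (log2 1.69 ± 0.47, adjusted p = 0.576).

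The rule names 3 more genes that were higher in aged venous cells, none of which passed. Reck, an inhibitor of matrix proteases, was at 33.9 and 26.5 CPM in young and 179 and 183 in aged pools (adjusted p = 0.222). Alpl and Nxpe2 were read in 4 and 3 of 26 aged cells. Bpgm, which makes 2,3-bisphosphoglycerate, the growth factor Hbegf, the chemerin receptor Ccrl2 and the cell-cycle inhibitor Cdkn1c had 0 reads in the 26 aged cells and reads in 4, 8, 5 and 9 of 45 young ones (adjusted p = 0.176 to 0.222). With 0 of 26 cells, as for Clu too, shares of up to 11.5% remain possible.

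Slco1c1, called lower in venous than in other cells only without the block, went from 1330 and 765 CPM in young to 463 and 330 CPM in aged venous sums (adjusted p = 0.317). Car4, not called between the classes, was at 1904 and 1546 CPM in young and 1223 and 491 CPM in aged venous sums (adjusted p = 0.518). Of 17 capillary genes 0 were called, and 10 were lower in aged venous cells with no overlap between ages, beside 22.1% of all genes in that direction. Members of the aged pools also carried more venous rule genes, as described above, and the part of that in these differences was not tested.

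**Figure D5:**
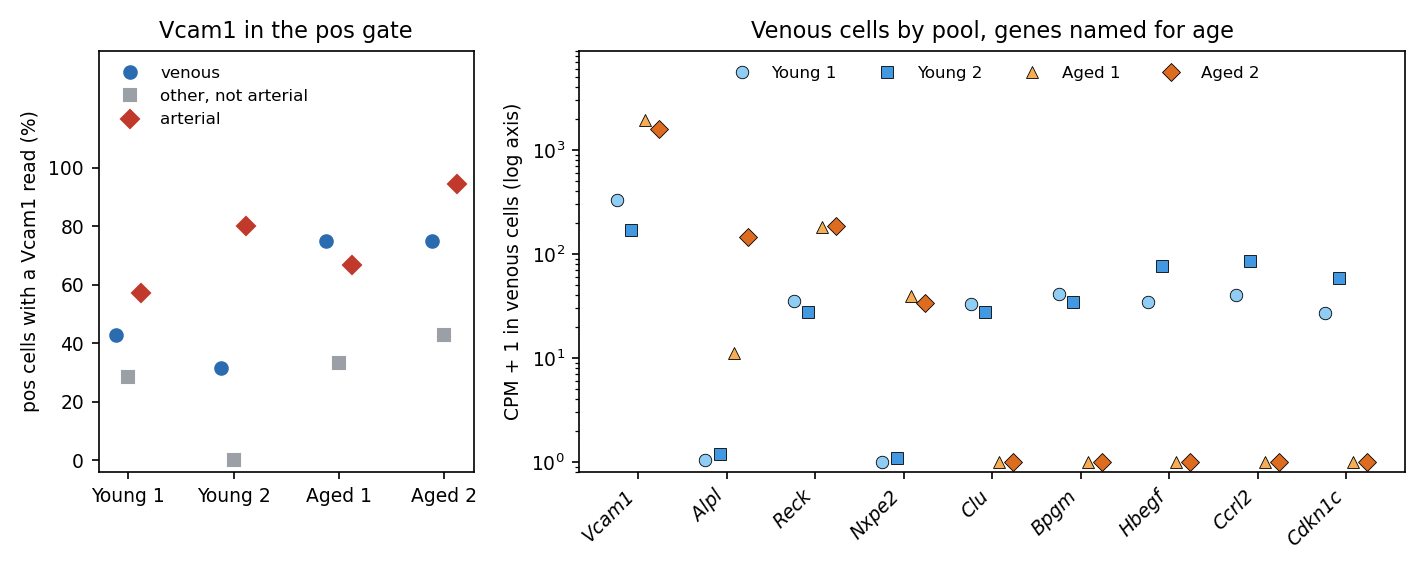
Left, percentage of pos cells with a Vcam1 read (y axis) in each pool (x axis) for venous, other non-arterial and arterial cells; the non-arterial points rest on 1 to 7 cells. Right, CPM plus 1 (y axis, log scale) in the 4 venous sums for genes named in the comparison of ages; Vcam1 and Reck sit higher in both aged pools, and Clu, Bpgm, Hbegf, Ccrl2 and Cdkn1c have 0 reads there.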

How the data were processed

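The authors deposited 1 count table, whole reads for 11463 genes in 316 cells. The submitters' processing notes name Bowtie 0.12.2, mm10 and GRCm38. How reads were counted, on which annotation and with or without strand, is not given in the sources used here. No 2 cells share a barcode (316 distinct) and no doublet caller was run. Each pool holds tissue of 4 mice (labels' protocols). Symbols were matched to GENCODE M21 (GRCm38; 11224 of 11463 matched), and coordinates come from it.

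Counts were summed over the venous and over the other cells of each pool. The 8 sums held 4853934 to 36790340 reads. The gene test was edgeR's quasi-likelihood test (edgeR 4.0.16, R 4.3.3) after filterByExpr and TMM scaling, with 1 coefficient per age and class. A call is a Benjamini-Hochberg value below 0.05. CPM was computed from the counts and effective sizes of the sums. Single values were compared by exact permutation over pools with scipy 1.17.1. The labels do not say whether pools of 1 age were prepared separately, so p-values measure only the spread between these pools, which may be technical. Floors (3 reads over a group, 3 cells of a share) and binomial intervals (95%) cover counting error only.

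Venous and other cells of a pool share their mice, per the labels, which pairs them by pool. Correlations of their deviations from the group means were 0.001 to 0.0227. Numbers pair no mice between ages. Other settings were the pool or number as a block, RLE size factors, limma-trend (limma 3.58.1), DESeq2 1.42.0, all genes without a low-count filter, thinned cells, other thresholds of the rule, other comparison cells, and leaving out each pool.

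The members, gene lists, tests and named-gene rule were chosen with earlier results of these data known. For venous against other cells the rule names called genes at 32 CPM or above in the higher class whose sign held in every pool, by size of change, up to 14 higher and 12 lower. The pos gate allows 8 each way, age 6 (groups that do not overlap) and the change with age 3, and short lists are filled to 6, 4, 4 and 2 by smallest p. Vcam1 and up to 4 members of each described list are added. Predicted genes are passed over. The result of 1 further gene is not reported here.

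Each test was tried on simulated data, where 100 genes differed 4-fold and another 100 differed 16-fold. For venous against other cells (10333 genes) 15 and 50 of these were called by edgeR, beside 3 unchanged genes; DESeq2 called 50 and 81, beside 416 unchanged genes. In the pos gate (9788 genes) edgeR called 8 and 41, and for age (10318 genes) 3 and 28.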

Additional observations from a re-analysis of the deposited data

Results flagged for a closer look

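Among 56 groups of 4 pool values screened for a pool far from the rest, 2 stood apart, where chance picks about 1 in 20. Atp2a3 stood at 0.397 CPM in venous cells of aged pool 1 and at 0 in the other venous sums, which rests on 2 reads. Fhl1 stood at 0.0529 CPM in venous cells of young pool 1 and at 0 in the others, which rests on 1 read.

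Clu is listed because its difference between venous and other cells changed with age (log2 -11.844; edgeR's quasi-likelihood adjusted p = 0.0336). Its aged venous sums hold 0 reads, so this fitted value is no measure of size.

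Of 36 cells with fewer than 1000 detected genes, which no comparison uses, 1 had 2 or more venous rule genes and more of these than of arterial ones.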

How the results depend on the processing

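Counts of called genes moved with the test, the comparison cells, the block and single pools. For venous against other cells (50 genes), DESeq2 gave 1776, limma-trend 30, non-arterial comparison cells 28, thinned cells 23 and the replicate block 17, and leaving out a pool gave 0 to 12. In the pos gate (43 genes), DESeq2 gave 1342, non-arterial comparison cells 1, the block 11, and leaving out a pool 0 to 15. For age (1 gene), DESeq2 gave 1517, thinned cells 2, 3 or more venous genes 2, and limma-trend, pos cells alone, venous sums alone, leaving out cells resembling other types and leaving out any pool 0. For the change of the class difference with age (1 gene), DESeq2 gave 1119, and limma-trend, the block, thinned cells, leaving out cells resembling other types and any pool 0. The cause was not tested.

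Genes that were not called changed sign as follows, in log2 for venous against other cells unless said. Slco1a4 was at -0.178 with 3 or more venous genes, -0.044 at 30 CPM, -0.009 without the filter, -0.333 against non-arterial cells, 0 with the block and -0.05 in thinned cells. Vcam1, Ptges3 and Ly6e were at 0.018, 0.017 and 0.058 with both DESeq2 and RLE size factors, and at 0.339, 0.026 and 0.083 with limma-trend. Against non-arterial cells Vcam1 was at 2.889 (1.053 in the pos gate), Ptges3 at 0.003, Ly6e at 0.148, Itm2a at -0.217 and Fn1 at 0.067. Vcam1 was at 0.111 in thinned cells, where the change of Alpl with age was -0.2.

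Over the fits that leave out 1 pool, values ran from -0.045 to 0.163 for Esam, -0.392 to 0.199 for Ptges3, -0.635 to 0.182 for Acvrl1, -0.169 to 0.16 for Slco1a4 (-0.031 without young pool 1) and -0.12 to 0.059 for Ly6e. They ran from -0.032 to 0.178 for Dusp1, -0.412 to 0.218 for Vcam1 (0.029 without aged pool 2) and -0.804 to 0.069 for Car4. The share of pos cells with a Vcam1 read, venous minus other, was 29.9185 points against non-arterial cells and -18.3687 to 3.22751 without 1 pool. With the block it stayed at -8.9154 (p = 0.625, exact permutation within pools).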
